A study of Danio rerio with 12 samples.

Results

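The genes described here are markers of the neural crest and of the pigment cells it forms, measured in whole zebrafish embryos. The embryos carry a Gal4 insertion in etv2, whose product is a transcription factor that starts endothelial and blood development. The genes were chosen by symbol from a list of 9, of which 8 are named in the tables and 1, tfec, was not analysed here, so that 8 of 31172 gene rows are covered. Homozygous embryos (2 copies of etv2 Gt(2A-Gal4)ci32) were compared with heterozygous embryos (1 copy) at the 15-somite stage and at 24 hours post fertilization (hpf), with 3 libraries in each of the 4 groups. Every group carried the Gal4 allele, which acts in cells that express etv2, came from crosses of UAS:GFP carriers with each other and was sorted by its GFP pattern. Embryos without the allele were not analysed here. Each library was a batch of 15 to 20 embryos, grown at 24 °C to the 15-somite stage or at 28 °C to 24 hpf, so stage and temperature cannot be told apart.

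The neural crest is a transient population of migratory cells that arises at the edge of the neural plate and forms, among other tissues, the pigment cells, peripheral glia and much of the facial skeleton. In zebrafish it gives black melanophores, yellow xanthophores and silvery iridophores. The transcription factor genes foxd3 and sox10 act early in crest cells. Sox10 switches on mitfa, the regulator that commits cells to the melanophore fate. The enzyme genes tyr, dct and tyrp1b then make melanin inside organelles that are built with the fibril protein of pmela and the cation exchanger of slc24a5, the golden gene. Melanin genes are also expressed in the retinal pigment epithelium, which comes from the eye cup and not from the crest. In RNA of whole embryos, fewer cells of a type and less RNA per cell cannot be told apart.

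The authors' normalized values were deposited as log2, each gene set relative to its own median within a stage. They hold no measured level, and only a broad level class of each gene within its own stage's table could be recovered from them. Each library's value is given here as a percentage of the heterozygous geometric mean at that stage (n = 3). Differences are in log2 units, homozygous minus heterozygous, followed by the standard error (SE). Depth per library is unknown. The homozygous libraries of the 15-somite stage are called hom 2, hom a and hom b, because 2 columns carried the same name. The targeted gene checked the labels: etv2 stood at 16.3% in hom 2, 13.3% in hom a and 12.9% in hom b, against 106%, 97.7% and 96.7% in het 1 to het 3. At 24 hpf it stood at 13.8%, 7.40% and 14.0% in hom 1 to hom 3, against 101%, 99.2% and 99.6% in het 1 to het 3. The etv2 differences were -2.83 (SE 0.10, adjusted p = 0.000188 by limma) and -3.15 (SE 0.23, adjusted p = 0.00307 by limma) at the earlier and later stage, and without het 1 the 24 hpf value gave adjusted p = 0.0520. None of the 8 genes lies on the chromosome of etv2 in the RefSeq annotation of assembly GRCz12tu. All 8 passed the filter on level at both stages.

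At the 15-somite stage no member passed the test, and the melanin genes dct and tyrp1b had the lowest values in homozygotes. By limma, with Benjamini-Hochberg adjustment over 18231 genes, 0 of 8 members were lower or higher at an adjusted p under 0.05, where 3.69% of all tested genes were lower and 0.927% higher. At an unadjusted p under 0.05, 2 of 8 were lower and 0 higher, beside 12.1% and 9.77% of all tested genes. The homozygous and heterozygous libraries did not overlap for the same 2 genes, dct and tyrp1b, while 15.7% of all tested genes had lower homozygous libraries without overlap. The median difference of the 8 members was -0.14, against 0.003 over all tested genes.

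The early crest regulators were close to equal in the genotypes at this stage. The gene of the crest transcription factor Sox10 stood at 101% in hom 2, 111% in hom a and 112% in hom b, against 95.7%, 104% and 100.3% in het 1 to het 3. Its groups overlapped, and the difference was 0.11 (SE 0.07, 95% interval -0.05 to 0.27, adjusted p = 0.405 by limma). The forkhead gene foxd3 ranged from 97.4% to 107% in homozygous libraries and from 96.6% to 105% in heterozygous ones, with a difference of 0.03 (SE 0.07, interval -0.13 to 0.19). As a percent change, the intervals of these 2 genes reached -8.53% (foxd3) and 20.8% (sox10) at their widest.

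Downstream of them, mitfa and its target dct varied more between libraries, and both stood in a lower level class than sox10 and foxd3. The SD within genotype was 0.33 for mitfa and 0.25 for dct, beside a median of 0.28 over genes of their class. The melanophore regulator mitfa stood at 99.3% in hom 2, 55.9% in hom a and 67.9% in hom b, against 114%, 85.4% and 102% in het 1 to het 3. Thus hom a and hom b lay below every heterozygous library while hom 2 lay among them, and the difference was -0.47 (SE 0.25, interval -1.05 to 0.11, adjusted p = 0.326 by limma). The dopachrome tautomerase gene dct, whose enzyme works in the middle of melanin synthesis, stood at 61.5% in hom 2, 55.5% in hom a and 74.1% in hom b, against 112%, 79.5% and 112% in het 1 to het 3. The 3 homozygous libraries were lower than every heterozygous one. Its difference was -0.66 (SE 0.21, interval -1.16 to -0.16, unadjusted p = 0.0160, adjusted p = 0.132 by limma).

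The tyrosinase-related gene tyrp1b stood at 75.8% in hom 2, 40.8% in hom a and 70.7% in hom b, against 93.0%, 107% and 100.3% in het 1 to het 3. Again no homozygous library reached a heterozygous one, and hom a was far below the other two. The difference was -0.73 (SE 0.26, interval -1.34 to -0.13, unadjusted p = 0.0239, adjusted p = 0.163 by limma), and it was -0.45 without hom a. In a single fit of all 12 libraries, in which the later libraries add to the estimate of spread, dct and tyrp1b passed, with adjusted p = 0.0339 and 0.0470 by limma. This fit takes 1 spread for both stages. The SD within genotype was however 0.25 at the 15-somite stage and 0.09 at 24 hpf for dct, and 0.35 and 0.05 for tyrp1b. They did not pass under the remaining alternatives.

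The other melanin genes were not separated by genotype at this stage. The tyrosinase gene tyr, whose enzyme starts melanin synthesis, spread widely, at 88.0% in hom 2, 115% in hom a and 78.0% in hom b and at 103%, 79.0% and 122% in het 1 to het 3. Its difference was -0.12 (SE 0.24), with an interval of -0.66 to 0.43 that leaves a sizeable change in either direction undetected. The fibril gene pmela stood at 94.2% in hom 2, 85.3% in hom a and 87.2% in hom b, against 113%, 93.1% and 94.7% in het 1 to het 3, a difference of -0.17 (SE 0.09, adjusted p = 0.332 by limma). The exchanger gene slc24a5 ranged from 103% to 109.5% in homozygous libraries, inside the heterozygous range of 86.7% to 111%, and its difference was 0.08 (SE 0.17). The median over the 6 melanophore members from mitfa to slc24a5 was 91.0% in hom 2, 69.1% in hom a and 76.0% in hom b, and 108%, 89.2% and 107% in het 1 to het 3.

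**Figure D1:**
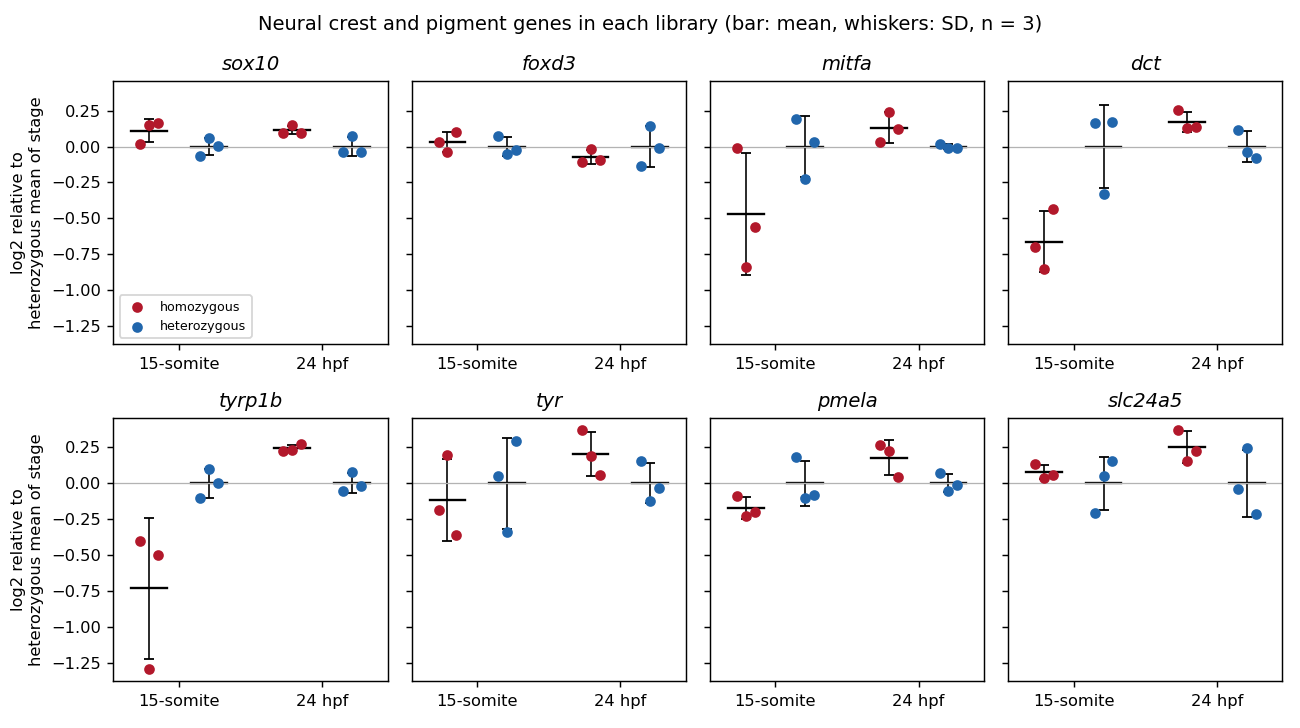
Log2 value of each gene in each library relative to the heterozygous mean at that stage (vertical axis), with homozygous libraries in red to the left of heterozygous ones in blue, at either stage (bars are means, whiskers SD, n = 3). The dct and tyrp1b points of homozygotes lie below all heterozygous points at the 15-somite stage and above them at 24 hpf, while sox10 and foxd3 stay near 0.

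At 24 hpf no member passed the test either, but 7 of 8 had a positive difference and foxd3 alone a negative one. By limma over 18924 genes, 0 of 8 members passed in either direction at an adjusted p under 0.05, where 0.301% of all tested genes were lower and 0.0159% higher. At an unadjusted p under 0.05, 3 of 8 (tyrp1b, dct and pmela) were higher and 0 lower, beside 3.12% and 3.93% of all tested genes. The homozygous libraries lay above the heterozygous ones without overlap for 4 of 8 members (sox10, mitfa, dct and tyrp1b), and for 6.29% of all tested genes, while 0 of 8 lay below without overlap, beside 6.44% of all tested genes. The median difference of the 8 was 0.18, against 0.002 over all tested genes.

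Among the regulators, sox10 stood at 107%, 111% and 107% in hom 1 to hom 3, against 97.2%, 105% and 97.6% in het 1 to het 3. The groups were separate but close, with a difference of 0.11 (SE 0.05, interval -0.01 to 0.24, adjusted p = 0.756 by limma). The values of mitfa were 102%, 118% and 109% in hom 1 to hom 3, against 101%, 99.3% and 99.3% in het 1 to het 3, so that hom 1 exceeded het 1 by a narrow margin. Its difference was 0.13 (SE 0.06, interval -0.02 to 0.28). The level of foxd3 was 92.8%, 98.9% and 93.9% in hom 1 to hom 3, within the heterozygous range of 91.1% to 111%, and its difference was -0.07 (SE 0.08, interval -0.26 to 0.11).

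The melanin genes had higher means in homozygotes at this stage, without passing over all genes. The gene tyrp1b stood at 117%, 117% and 121% in hom 1 to hom 3, against 96.2%, 105% and 98.5% in het 1 to het 3. These homozygous values were tight and all above the heterozygous ones, and the difference was 0.24 (SE 0.05, interval 0.11 to 0.37, unadjusted p = 0.00292, adjusted p = 0.289 by limma). The dct values were 119%, 109% and 109.8% in hom 1 to hom 3, against 109%, 97.5% and 94.4% in het 1 to het 3, a difference of 0.17 (SE 0.07, adjusted p = 0.706 by limma). For dct the lowest homozygous and the highest heterozygous library nearly met.

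For the remaining melanin genes the groups overlapped at 24 hpf. The values of pmela were 121%, 117% and 103% in hom 1 to hom 3, against 105%, 96.2% and 99.0% in het 1 to het 3, with a difference of 0.18 (SE 0.07, unadjusted p = 0.0458, adjusted p = 0.706 by limma). Those of tyr were 129%, 114% and 104% in hom 1 to hom 3, against 111%, 92.0% and 97.7% in het 1 to het 3 (difference 0.21, SE 0.10). The gene slc24a5 stood at 129.5%, 111% and 117% in hom 1 to hom 3, against 97.4%, 119% and 86.4% in het 1 to het 3 (difference 0.25, SE 0.12). In both tyr and slc24a5, hom 1 was the highest of the 6 libraries. The median over the 6 melanophore members was 119.8%, 115% and 109% in hom 1 to hom 3, against 103%, 98.4% and 98.1% in het 1 to het 3.

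The spread between libraries differed with stage for these genes. At the 15-somite stage, mitfa, tyr, tyrp1b, dct and slc24a5 had a row median in the lower of the 2 tested level classes (log2 of 4 to 8), and sox10, foxd3 and pmela one in the upper class (log2 of 8 or above). At 24 hpf all 8 stood in the upper class of that table, which was normalized separately. The SD within genotype of tyrp1b was 0.35 at the 15-somite stage, where the median over genes of its level was 0.28, and 0.05 at 24 hpf, where that median was 0.09. The SDs of mitfa were 0.33 and 0.08 at the earlier and the later stage. The SD was larger at 24 hpf for slc24a5 (0.14 at the earlier stage, 0.18 at the later) and for foxd3 (0.07 at the earlier, 0.11 at the later).

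The difference between the stages was tested as an interaction, the effect at 24 hpf minus that at the 15-somite stage. The interaction test also takes 1 spread for both stages. No member passed, yet dct and tyrp1b came nearest, with opposite signs of the genotype effect at the 2 stages. Of 17481 genes tested at both stages, 1.04% had a negative and 2.84% a positive interaction at an adjusted p under 0.05 by limma, and 0 of 8 members did. At an unadjusted p under 0.05, 3 of 8 (dct, tyrp1b and pmela) were positive and 0 negative, beside 10.8% and 8.46% of all genes tested at both stages. For tyrp1b the interaction was 0.97 (SE 0.29, interval 0.35 to 1.60, adjusted p = 0.0847 by limma) and for dct 0.83 (SE 0.24, interval 0.31 to 1.36, adjusted p = 0.0778 by limma). With each of the 12 libraries left out in turn, tyrp1b passed only without hom 2 of the 15-somite stage (adjusted p 0.0486 to 0.160 by limma). In the same fits dct passed only without het 2 of that stage (adjusted p 0.0438 to 0.161 by limma). The lowest interaction among these fits was 0.69 for tyrp1b and 0.74 for dct.

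Both tyrp1b and dct had homozygous libraries entirely below the heterozygous ones at the 15-somite stage and entirely above them at 24 hpf. This held for 2 of 8 members and for 1.11% of all genes tested at both stages, while 1.12% showed the reverse order. The interaction of pmela was 0.35 (SE 0.12, adjusted p = 0.131 by limma) and that of mitfa 0.60 (SE 0.28, adjusted p = 0.268 by limma). Those of tyr and slc24a5 were 0.32 (SE 0.28) and 0.18 (SE 0.22). The early regulators gave interactions near 0, with sox10 at 0.005 (interval -0.18 to 0.19) and foxd3 at -0.10 (interval -0.32 to 0.12).

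**Figure D2:**
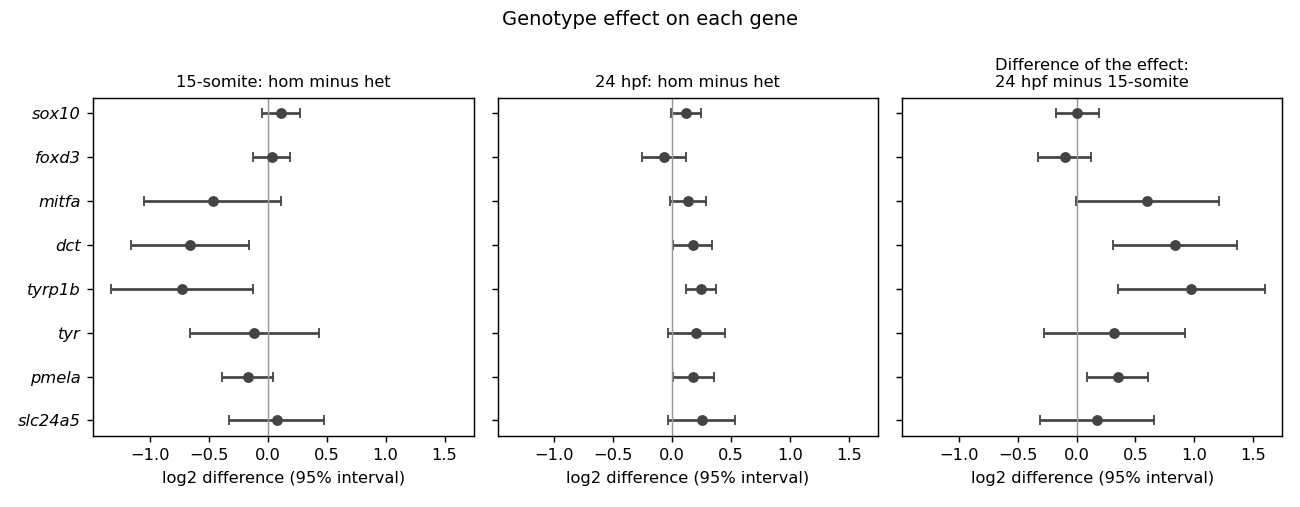
Log2 difference between homozygous and heterozygous embryos for each gene at the 15-somite stage (left) and at 24 hpf (middle), and the difference of that effect between stages (right), with 95% intervals from limma. The dct and tyrp1b intervals lie below 0 on the left and above 0 in the middle and on the right, and none of these 24 comparisons passed over all genes.

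The genes whose values over the 12 libraries were most like each member were ranked by the root-mean-square difference of log2 values among the 17481 genes tested at both stages, as a description. For mitfa the most alike gene was gch2, an enzyme gene of pteridine pigment synthesis in xanthophores, with a root-mean-square difference of 0.13. The gch2 differences were -0.38 at the 15-somite stage and 0.11 at 24 hpf. As the ranking picks rows with like values, a sign shared with the member follows from the selection. Next for mitfa came hnmt and helt (0.13 each), and for tyrp1b ajap1, tprg1 and zgc:114174 (0.09, 0.12 and 0.16). The nearest rows to dct were si:dkey-33i11.4, SUSD1 (1 of 2) and MAN1B1 (1 of 2), at 0.14 to 0.16. By the same selection, members with little change were nearest to other genes with little change. These were ZNF281 (2 of 2), araf and pcdh10b for sox10 (0.04 each) and BX664614.1, ITGB1BP2 and rmnd5b for foxd3 (0.02 to 0.04). The remaining nearest rows were larsa, mgat4a and pigk for tyr, psmc1b, THOP1 and cops8 for pmela, and pgpep1, si:dkey-233e3.3 and zbtb22b for slc24a5.

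Wider lists of crest and pigment genes gave the setting of the 8 members. Their counts at an unadjusted p under 0.05 stand beside shares over all tested genes of 12.1% lower and 9.77% higher at the 15-somite stage, and of 3.93% lower and 3.12% higher at 24 hpf. Of 23 tested genes of crest specification, which include sox10, foxd3, snai2, tfap2a and twist1a, none passed at either stage by limma. At an unadjusted p under 0.05, 4 were higher and 0 lower at the 15-somite stage, and 1 was higher and 0 lower at 24 hpf. The list's median difference was 0.02 at the earlier stage and 0.008 at the later. In single libraries it stayed between 98.99% and 103% at the 15-somite stage. Chosen as an example after its values were seen, the crest and cartilage regulator sox9b stood at 111% in hom 2, 123% in hom a and 127% in hom b, against 94.1%, 99.96% and 106% in het 1 to het 3 at the 15-somite stage (difference 0.26, SE 0.08, adjusted p = 0.114 by limma).

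The melanophore list includes the 6 members from mitfa to slc24a5, and most of its genes had the signs of tyrp1b and dct at each stage. Its counts hold these members too, and no count without them was made. Of 15 tested at the 15-somite stage, 12 lay below 0 with a median of -0.17, and of 18 tested at 24 hpf, 15 lay above 0 with a median of 0.16. Over all tested genes 49.5% lay below 0 at the earlier stage and 50.7% above 0 at the later. Some lists of other tissues were one-sided too. Of 11 neural genes 10 lay above 0 at the 15-somite stage and 8 below 0 at 24 hpf. Of 11 paraxial mesoderm and somite genes 10 lay above 0 at the earlier stage, and of 10 at the later 5 did. Of 11 otic vesicle genes 8 lay above 0 at the earlier stage, and of 12 at the later 9 lay below 0. The floor plate and notochord list was more even at the earlier stage, with 5 of 9 above 0, but 7 of 9 lay above 0 at the later. No gene of the melanophore list passed by limma. At an unadjusted p under 0.05 that list had 3 lower and 1 higher at the 15-somite stage and 1 lower and 5 higher at 24 hpf. Members made up 2 of the 3 lower at the earlier stage (dct and tyrp1b). They made up 3 of the 5 higher at the later (tyrp1b, dct and pmela). Examples chosen after their values were seen follow. The other Pmel gene, pmelb, stood at -0.40 (SE 0.41) and 0.22 (SE 0.09) at the earlier and later stage. The transporter gene slc45a2, the albino gene, stood at -0.25 (SE 0.28) and 0.16 (SE 0.07), and the receptor gene kita at -0.17 (SE 0.11) and 0.08 (SE 0.07).

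The channel genes trpm1a and trpm1b, named after their values were seen, ran against this order. For trpm1b the difference was 0.19 (SE 0.12) at the earlier stage and -0.11 (SE 0.10) at the later, with overlapping groups at each. The values of trpm1a were 281% in hom 2, 307% in hom a and 280.2% in hom b, against 38.0%, 108% and 244% in het 1 to het 3 at the 15-somite stage. At 24 hpf trpm1a stood at 46.7%, 46.1% and 81.3% in hom 1 to hom 3, against 101%, 90.3% and 109.97% in het 1 to het 3. The trpm1a groups were separate at both stages, but the heterozygous libraries of the earlier stage were far apart, and neither trpm1a difference passed (1.53, SE 0.58, adjusted p = 0.187, and -0.84, SE 0.25, adjusted p = 0.507, by limma).

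**Figure D3:**
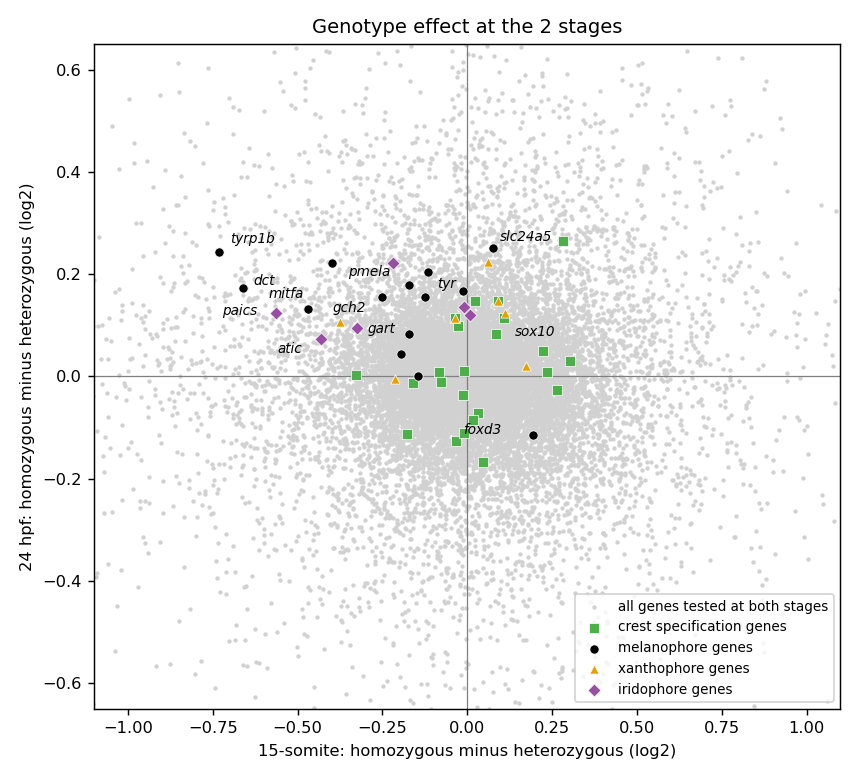
Genotype effect at the 15-somite stage (horizontal, log2) against that at 24 hpf (vertical, log2) for 17481 genes in grey and for the tested genes of 4 lists in colour; 551 genes, 2 of them listed, lie outside the axes. Most melanophore genes sit in the upper left, with tyrp1b and dct farthest out there, and crest specification genes sit around the origin. The 2 listed genes outside are trpm1a (1.53 at the 15-somite stage, -0.84 at 24 hpf) and pnp4a (1.18 and 0.21), neither of them in the upper left.

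Among the genes listed for iridophores, 3 enzymes of purine synthesis fell at the 15-somite stage, the only genes of these crest and pigment lists to pass. The purine synthesis genes impdh1b (-0.01, SE 0.06) and gmps (0.007, SE 0.07) of the same list stood near 0 at that stage and did not pass. Purines are the raw material of the iridophore's reflecting crystals, but every dividing cell makes them, so these enzymes mark no single cell type. The gene paics, whose enzyme covers a pair of middle steps of the pathway, stood at 71.9% in hom 2, 70.3% in hom a and 61.5% in hom b, against 101%, 102% and 97.2% in het 1 to het 3. It fell by 0.56 (SE 0.08, adjusted p = 0.0136 by limma). The gene of the last enzymes of the pathway, atic, fell by 0.43 (SE 0.09, adjusted p = 0.0399 by limma), and gart, which encodes 3 earlier activities, fell by 0.33 (SE 0.06, adjusted p = 0.0303 by limma). Without het 2 paics did not pass (adjusted p = 0.0746), atic passed only without hom 2 (0.0382 to 0.130 over the 6 libraries left out in turn), and gart lost the call whichever library was left out (0.0516 to 0.121). With 1 prior spread for all genes, atic and gart did not pass (adjusted p = 0.0918 and 0.0771 by limma).

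At 24 hpf paics, atic and gart stood at 0.12, 0.07 and 0.09 and did not pass. Their interactions did, at 0.69 for paics (SE 0.09, adjusted p = 0.00337), 0.50 for atic (SE 0.10, adjusted p = 0.0222) and 0.42 for gart (SE 0.09, adjusted p = 0.0286), by limma. Of the 12 fits with a library left out, the interaction of paics passed in all, that of atic was lost in 3 (adjusted p up to 0.0571) and that of gart in 8 (up to 0.0732). With 1 prior spread atic (0.0516) and gart (0.0606) lost it too. Of all 7 iridophore genes tested at the 15-somite stage 5 lay below 0 and 2 above, with a median of -0.22. By limma 3 passed as lower and 0 as higher, beside 3.69% and 0.927% of all tested genes. Of 8 tested at 24 hpf all lay above 0, with a median of 0.12, and 0 passed by limma, with 5 higher and 0 lower at an unadjusted p under 0.05. The iridophore marker pnp4a, a purine phosphorylase gene named after its values were seen, stood at 119.8%, 116% and 110.3% in hom 1 to hom 3, against 100.2%, 100.3% and 99.4% in het 1 to het 3 at 24 hpf (difference 0.21, SE 0.05, adjusted p = 0.388 by limma). At the 15-somite stage pnp4a was at 209% in hom 2, 249.8% in hom a and 221% in hom b, against 162%, 143% and 43.0% in het 1 to het 3 (difference 1.18, SE 0.47, adjusted p = 0.203 by limma).

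Xanthophore genes and other crest derivatives did not pass at either stage by limma. Of 7 xanthophore genes at the 15-somite stage 0 were past an unadjusted p of 0.05, and of 9 at 24 hpf 2 were higher, aox3 (0.22, SE 0.05) and the transcription factor gene pax7b (0.15, SE 0.05). Their medians were 0.06 and 0.11 at the earlier and later stage. Of the genes of crest-derived neurons, glia and cartilage, 12 were tested at the 15-somite stage (median -0.03, 2 lower and 3 higher at an unadjusted p under 0.05) and 15 at 24 hpf (median 0.04, 0 lower and 1 higher). In this list 7 lay below 0 and 5 above at the earlier stage, and 2 below and 13 above at the later.

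Markers of the eye, where the melanin genes are also expressed, did not show the order seen in the melanophore list. Of 14 genes of retinal pigment epithelium and eye tested at the 15-somite stage 3 lay below 0 and 11 above, with a median of 0.10, and of 15 at 24 hpf 7 lay below and 8 above, with a median of 0.01. The list median ranged from 104% to 111% in homozygous and from 98.4% to 102% in heterozygous libraries at the 15-somite stage, and from 98.8% to 103% and from 93.7% to 106% at 24 hpf. None passed by limma, with 2 higher and 0 lower at the 15-somite stage and 1 higher and 0 lower at 24 hpf at an unadjusted p under 0.05. The part of the eye in the melanin values was not tested.

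**Figure D4:**
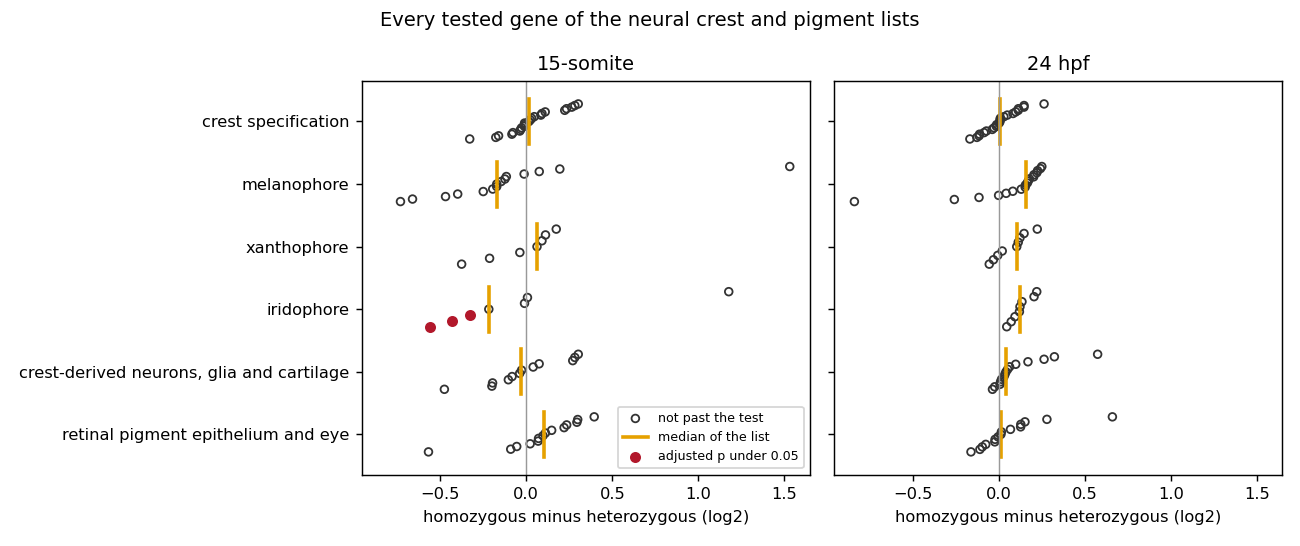
Difference between homozygous and heterozygous embryos (horizontal, log2) of every tested gene of 6 lists at the 15-somite stage (left) and at 24 hpf (right), with the list median as a bar and genes past an adjusted p of 0.05 filled. Only paics, atic and gart of the iridophore list are filled, and the melanophore median moves between -0.17 on the left and 0.16 on the right.

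Lists of other tissues that express crest genes or lie beside the crest were read in the same libraries. Genes of endothelium, a tissue whose formation needs etv2, were lower in homozygotes. All 13 tested lay below 0 at the 15-somite stage (median -3.31) and at 24 hpf (median -2.36). By limma 13 passed as lower at the earlier stage and 10 at the later, beside 3.69% and 0.301% of all tested genes. At both stages kdrl, flt1, tie1, tie2, clec14a, erg, she, stab2, cldn5b and gpr182 passed. The genes cdh5, fli1a and egfl7 passed at the 15-somite stage only, and stood at -1.28, -0.39 and -0.41 at 24 hpf. At the 15-somite stage egfl7 lost its call in 5 of 6 fits with a library left out (adjusted p up to 0.0886), flt1 without het 2 and without het 3, and cdh5 without het 2 (up to 0.0614 for both genes). At 24 hpf tie1 lost its call without hom 3, het 1 or het 3 (up to 0.0649), flt1 without hom 1 or het 1 (up to 0.0650) and in the fit of all 12 libraries (0.0872), erg without hom 3 or het 1 (up to 0.0535), and kdrl without hom 3 (0.0531). Of 11 genes of paraxial mesoderm and somite, where foxd3 is also expressed, tbx6 rose by 0.51 at the 15-somite stage (SE 0.11, adjusted p = 0.0480 by limma), and of the 6 fits with a library left out it passed only in the fit without hom 2 (adjusted p 0.0392 to 0.167). With 1 prior spread for all genes tbx6 did not pass either (adjusted p = 0.103 by limma). The paraxial mesoderm and somite list had a median of 0.21 at the 15-somite stage and -0.02 at 24 hpf. The otic vesicle, where sox10 is also expressed, the floor plate with notochord, and the neural list had no gene past the test at a stage, with medians of 0.13, 0.09 and 0.07 at the 15-somite stage and -0.03, 0.07 and -0.06 at 24 hpf. At an unadjusted p under 0.05 these 3 lists had 2, 3 and 3 higher and 1, 2 and 0 lower genes at the 15-somite stage, and 0, 1 and 0 higher and 0, 0 and 1 lower at 24 hpf. For 2 genes the interaction passed, namely foxa2 of the floor plate (0.38, adjusted p = 0.0460 by limma) and elavl3 of neurons (-0.51, adjusted p = 0.0343 by limma), named after their values were seen. Fits with a library left out were not examined for either gene. The part of these tissues in the member values was not tested.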

How the data were processed

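RNA of 12 libraries was sequenced. The authors deposited 1 table of normalized log2 values per stage; the submitters' processing notes name the build Zv9 and the tool DESeq. The sources used here do not give the aligner, counter or annotation. As deposited, every row has a median of 0 over the 6 libraries of its table, so depth is unknown and no count test was possible. The step size of the stored numbers placed the original row median, in log2, under 2, from 2 to 4, from 4 to 8, or at 8 and above. In simulation, 95.3% and 95.6% of rows received their true class. Rows at a log2 level of 4 or above (16 normalized units) were tested with limma 3.58.1 in R 4.3.3, with a prior spread per class and no replicate block, two-sided, and called at an adjusted p under 0.05. On tables simulated with the spread of the 15-somite libraries (18231 genes), 37 of 50 genes changed by 1 on the log2 scale and 19 of 50 changed by 0.5 were called. With that of 24 hpf (18924 genes), 27 of 50 and 11 of 50 were. The changed genes were drawn over both tested level classes, and no rate per class was computed. At the 15-somite stage mitfa, tyr, tyrp1b, dct and slc24a5 were in the lower class, with a median SD of 0.28 against 0.10 in the upper. The rates given need not hold for these genes. The p-values measure the spread between batches of embryos.

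Members and lists were chosen with earlier results of these data known. Genes were matched by the symbol in the tables, or by current symbol through gene IDs. Named are all members, list genes that passed at a stage, and the 3 most alike rows of each member. Further list genes were picked as examples after their values were seen, aox3 and pax7b among them. Alternatives were no filter, a filter at log2 8, 1 prior spread, all 12 libraries in 1 fit, quantile normalization, each library left out, and a replicate block at 24 hpf.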

Additional observations from a re-analysis of the deposited data

Results flagged for a closer look

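By limma, the interaction of genotype and stage passed for 13 genes of the lists, none of them a member. Of these, 11 had also passed at a stage. Over all 17481 genes tested at both stages, 1.04% passed as negative and 2.84% as positive. By list, 6 of 13 endothelial genes passed as positive and 1 as negative, and 3 of 7 iridophore genes as positive. In the floor plate and notochord list 1 of 9 passed, in the paraxial mesoderm and somite list 1 of 10, and in the neural list 1 of 11. The interaction was positive, a less negative or a more positive effect at 24 hpf, for the purine genes paics (0.69), atic (0.50) and gart (0.42). It was also positive for the endothelial genes cdh5 (3.48), gpr182 (3.35), clec14a (3.08), tie1 (1.54), she (1.35) and fli1a (0.70). It was negative for the endothelial gene stab2 (-1.26) and for the mesoderm gene tbx6 (-0.59). The others were foxa2 (0.38) and elavl3 (-0.51). The alternatives were not examined for foxa2 and elavl3, so whether their calls hold there is not known. Of the 12 fits with a library left out, the interaction was lost in 10 for tbx6 (adjusted p up to 0.109), 9 for tie1 (0.0832), 8 for gart (0.0732), 4 for cdh5 (0.0571) and 3 for atic (0.0571), by limma. It was also lost for tbx6 with no filter (0.0619) and with 1 prior spread (0.0935), for tie1 with 1 prior spread (0.0770) and after quantile normalization (0.0501), and for cdh5 (0.0516), atic (0.0516) and gart (0.0606) with 1 prior spread.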

How the results depend on the processing

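Of the alternatives that left no library out, only quantile normalization changed the values, and the 8 members kept their direction under it. The others kept each difference and changed only its test or the genes tested, so they could not reverse a direction. With the filter at log2 8, mitfa, tyr, tyrp1b, dct and slc24a5 were not tested at the 15-somite stage or for the interaction. Leaving out each library in turn, the difference ranged from -0.0028 to 0.069 for foxd3, -0.29 to 0.030 for tyr and -0.028 to 0.15 for slc24a5 at the 15-somite stage, from -0.14 to 0.0015 for foxd3 at 24 hpf, and from -0.041 to 0.043 for the sox10 interaction, so these signs are not settled. At the 15-somite stage mitfa ranged from -0.70 to -0.28 and pmela from -0.22 to -0.081, and at 24 hpf mitfa ranged from 0.075 to 0.18, tyr from 0.12 to 0.28 and slc24a5 from 0.15 to 0.38, while tbx6 at 24 hpf ranged from -0.13 to 0.0092. The members called numbered 2, both lower, at the 15-somite stage in 1 fit of all 12 libraries, and 0 to 1 for a positive interaction when a library was left out. For etv2 at 24 hpf that range was -3.31 to -2.85, with the call lost without het 1.

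Calls over all genes moved more, given here as a percent of the genes tested. At the 15-somite stage 3.69% were lower and 0.927% higher, against 0.406% higher with no filter, 1.40% lower and 0.274% higher with 1 prior spread, 6.54% lower and 3.80% higher in the fit of 12 libraries, 1.83% higher after quantile normalization, and 0.378% to 2.45% lower and 0.0549% to 0.428% higher with a library left out. At 24 hpf 0.301% were lower and 0.0159% higher, against 0.266% lower with the filter at log2 8 (29 genes, against 57), 0.196% lower with 1 prior spread, 0.0423% higher in the fit of 12 libraries, 0.0317% higher after quantile normalization, and 0.0951% to 0.222% lower and 0% to 0.0317% higher with a library left out. The interaction was negative for 1.04% and positive for 2.84%, against 0.355% and 1.22% with 1 prior spread, 1.60% negative after quantile normalization, and 0.235% to 1.08% and 1.06% to 3.12% with a library left out. The cause was not tested.

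With a replicate block at 24 hpf, 22 genes (0.116%) were lower and 1 (0.00528%) higher. The correlations of same-numbered libraries were 0.10, 0.02 and -0.01, hom 1 and hom 2 correlated best with their own number and hom 3 with het 2. As only 1 of these 3 values is over 0.1, the libraries were taken to share only a number. The cut of 0.1 was a choice, so the check does not settle whether same-numbered batches were related. No paired analysis was possible at the 15-somite stage because 2 homozygous columns carry the same number, so that only hom 2 has a known partner. With no filter atic (adjusted p = 0.0518) and tbx6 (0.0620) did not pass by limma. Another pseudocount could not be tried on the deposited values, and depth, which is unknown, limits the low rows.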
